A study of Mus musculus with 4 samples.

Results

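Imprinted genes were examined in tissues of the early mouse embryo. They are genes that are active mainly from the copy of 1 parent, and many of them stand in clusters controlled by a shared methylated element. The list held 38 such genes, chosen by name, and 35 of them had at least 1 probe set annotated to that gene alone. These 35 genes had 99 of the 34945 probe sets with a single gene, and the whole array covered 18193 genes. H19, Dio3 and Zrsr1 had no probe set annotated to them alone and were not analysed. Each gene was read from the probe set with the highest mean, so mean intensity chose the probe set, and all probe sets were examined for Airn and Igf2r. Airn was already known to differ between these tissues when the list was drawn up, so its tissue difference is a description, and no p-value of that contrast is used to support it.

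The embryos were of strain ARC/s at embryonic day 8.5 with 4 to 5 somites (from 3 in a source label). 1 tissue was foregut endoderm, taken around the anterior intestinal portal, and the other was mesoderm of heart and head pooled with head ectoderm, referred to below as mesoderm and ectoderm. No genetic change or agent is named in the labels, and 15 to 20 pieces were pooled for each of the 4 samples, 2 of each tissue. In experiment 1 the tissues were parted by hand, and in experiment 2 after trypsin and pancreatin, so experiment and dissection cannot be told apart. A description field calls the sample foregut endoderm 2 "ectoderm", against its title, source and tissue labels. The labels do not say whether the pools came from separate litters, so errors and p-values measure only the spread between these samples.

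The values are log2 intensities of Affymetrix probe sets, on which 2.25 to 2.28 was the lowest value of an array and 41.4% to 44.8% of probe sets lay within 0.1 of it, here called the floor. A log2 level of 5 was exceeded by 12470 to 13033 probe sets per array, and arrays of the same experiment correlated more closely across probe sets (r = 0.93 and 0.91) than arrays of the same tissue (0.87 and 0.81). Foregut endoderm markers fixed for this work stood where the labels put them, as 9 of 10 passed the filter and each of the 9 exceeded the other tissue by 2-fold or more in both experiments, with Nkx2-1 at the floor on all 4 arrays. Neural plate markers were lower in endoderm in both experiments for 8 of the 9 that passed. Heart muscle markers did not follow the labels. Their median log2 level was 8.73 and 4.77 in the endoderm samples of experiments 1 and 2, and 3.19 and 12.99 in their partners. In bulk samples, fewer cells of a type and less RNA per cell cannot be told apart.

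Genomic imprinting is set in the germ line by DNA methylation of control elements, and it is kept through development by proteins that protect those marks. Paternally active genes such as Igf2 and Peg3 often favour growth of the embryo, and maternally active ones such as Igf2r, Cdkn1c, Phlda2 and Grb10 often restrain it. In several clusters a long noncoding RNA from the paternal copy, such as Airn or Kcnq1ot1, silences neighbouring protein genes on that copy. Arrays of this kind read the total RNA of a gene and cannot tell the parental copies apart.

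The sequences before the start sites are shown for the genes on which the results turn, the antisense pair Airn and Igf2r and the neighbours Ndn, Magel2, Mkrn3 and Peg12. Each is the 250 bases upstream of a RefSeq start in build GRCm38.p6, read 5′ to 3′ along the gene's own strand, with CpG dinucleotides, the bases that can carry imprint methylation, in capitals.
Airn, chr17:12741061-12741310, plus strand: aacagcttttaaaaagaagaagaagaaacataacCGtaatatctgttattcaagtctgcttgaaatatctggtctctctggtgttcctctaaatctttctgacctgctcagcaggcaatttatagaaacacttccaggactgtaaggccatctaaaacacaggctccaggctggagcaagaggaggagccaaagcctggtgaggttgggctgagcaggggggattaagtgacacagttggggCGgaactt
Igf2r, chr17:12769707-12769956, minus strand: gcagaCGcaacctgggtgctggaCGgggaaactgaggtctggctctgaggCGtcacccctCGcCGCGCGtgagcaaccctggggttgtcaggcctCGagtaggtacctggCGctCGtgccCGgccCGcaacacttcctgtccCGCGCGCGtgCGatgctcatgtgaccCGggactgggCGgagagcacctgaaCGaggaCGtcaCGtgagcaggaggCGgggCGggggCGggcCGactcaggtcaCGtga
Ndn, chr7:62348027-62348276, plus strand: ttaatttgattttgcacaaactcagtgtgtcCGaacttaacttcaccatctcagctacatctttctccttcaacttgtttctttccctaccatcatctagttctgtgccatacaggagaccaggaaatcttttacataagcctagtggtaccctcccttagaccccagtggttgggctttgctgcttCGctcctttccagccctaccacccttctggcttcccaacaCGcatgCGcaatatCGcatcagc
Magel2, chr7:62376729-62376978, plus strand: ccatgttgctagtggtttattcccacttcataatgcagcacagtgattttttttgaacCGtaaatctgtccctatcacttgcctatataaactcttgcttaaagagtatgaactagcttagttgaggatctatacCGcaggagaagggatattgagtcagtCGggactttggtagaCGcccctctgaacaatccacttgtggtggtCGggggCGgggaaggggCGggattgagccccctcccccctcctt
Mkrn3, chr7:62420154-62420403, minus strand: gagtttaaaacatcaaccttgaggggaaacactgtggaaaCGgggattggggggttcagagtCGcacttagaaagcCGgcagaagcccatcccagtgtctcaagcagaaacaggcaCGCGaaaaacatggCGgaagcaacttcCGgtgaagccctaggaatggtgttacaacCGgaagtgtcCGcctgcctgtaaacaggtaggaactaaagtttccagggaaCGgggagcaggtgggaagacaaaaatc
Peg12, chr7:62464511-62464760, minus strand: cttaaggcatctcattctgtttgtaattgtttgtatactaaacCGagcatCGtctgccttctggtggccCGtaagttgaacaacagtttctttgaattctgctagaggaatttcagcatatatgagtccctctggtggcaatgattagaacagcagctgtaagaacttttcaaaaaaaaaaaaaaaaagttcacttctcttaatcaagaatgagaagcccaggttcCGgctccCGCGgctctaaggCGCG

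The 6 windows differ in CpG number. That of Igf2r held 27 CpG, and 8.56% of the 32851 windows of the RefSeq table held as many or more. That of Airn held 2, which 81.2% of all windows reached. The start of Airn lies 28395 bases inside Igf2r on the opposite strand, and in the RefSeq table Airn overlaps both Igf2r and Mas1. The windows of Ndn, Magel2, Mkrn3 and Peg12 held 5, 7, 10 and 8 CpG. The hexamer TGCCGC, the target of the imprint-protecting zinc finger protein ZFP57, was sought on both strands and was in none of these 6 windows. It was in windows of 5 list genes, Mest, Copg2, Zim1, Plagl1 and Meg3. These made 6 of 47 windows (12.8%, some overlapping) of 31 list genes, against 8.68% of all windows. A match is only a match of letters.

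Over the whole list, levels ran from the floor to among the highest on the array. The filter of a log2 level above 5 on at least 2 arrays was passed by 25 of the 35 genes. The other 10 were Usp29, Zim1, Peg10, Dlk1, Mirg, Ascl2, Kcnq1, Mkrn3, Snrpn and Trappc9. Of these, Zim1, Snrpn and Trappc9 lay at the floor on all 4 arrays. A log2 level above 10 on at least 1 array was reached by 12 genes, among them Peg3, Grb10, Ndn, Mest and Igf2. The brightest of all was Grb10 at 13.67 in foregut endoderm 1, and these are levels of different probe sets, which do not rank the genes by amount of RNA.

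**Figure D1:**
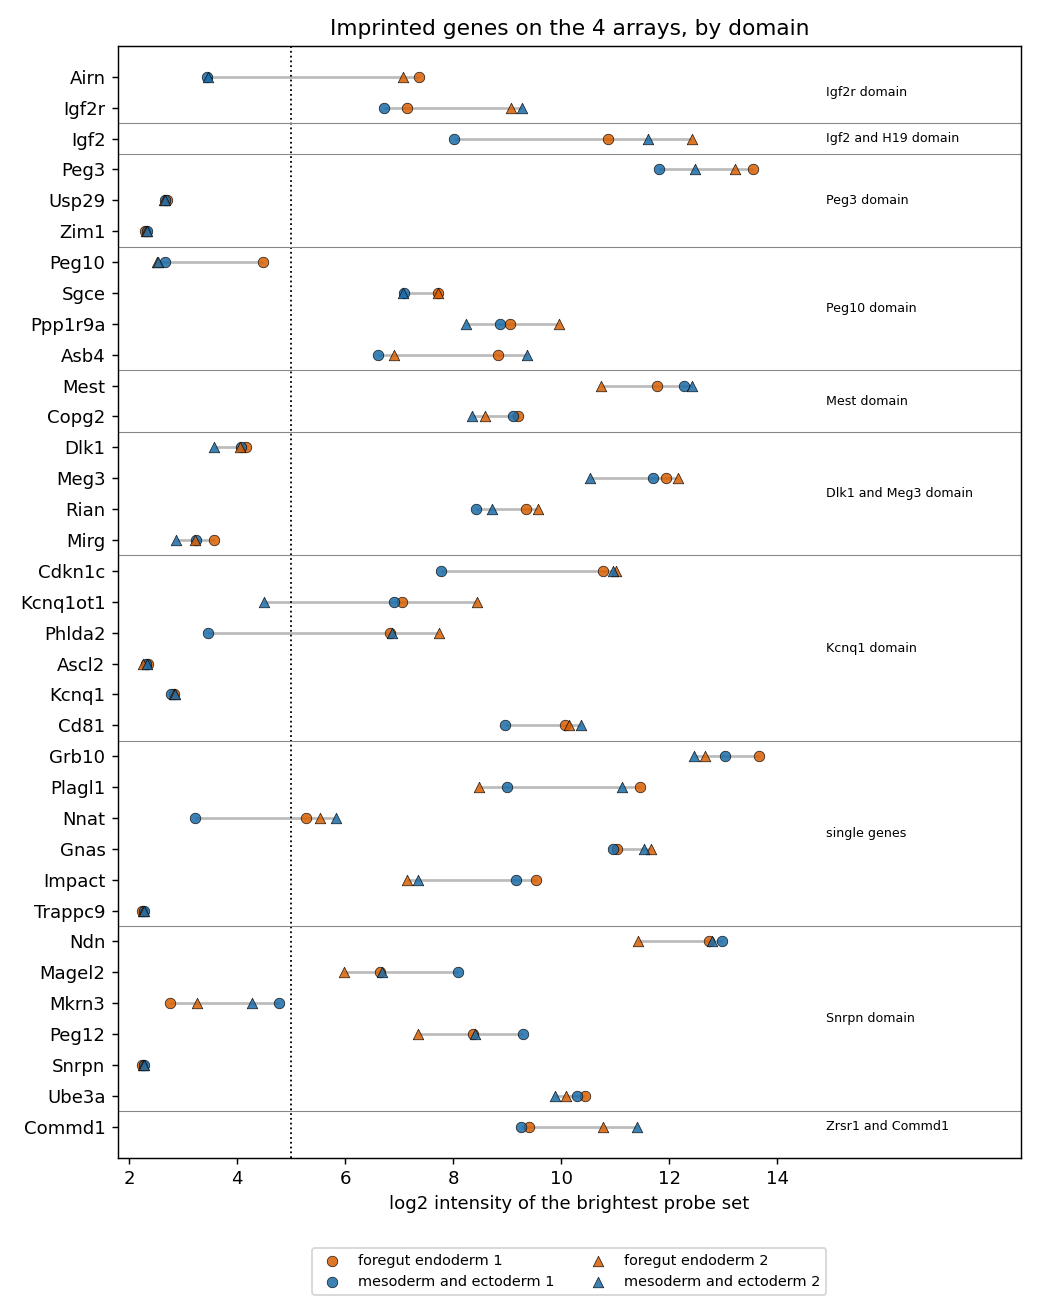
Log2 intensity (x axis) of the brightest probe set of 35 imprinted genes (y axis, grouped by domain) on the 4 arrays, with orange for foregut endoderm, blue for mesoderm and ectoderm, circles for experiment 1, triangles for experiment 2 and a dotted line at the filter of 5. Airn is the gene whose orange and blue points lie far apart in both experiments, while for Igf2r, Impact and Commd1 circles and triangles lie apart.

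The study asked which genes mark foregut endoderm, so each gene was compared as foregut endoderm minus mesoderm and ectoderm, once within each experiment. Among the 25 genes past the filter, 14 were higher in endoderm in both experiments and 4 were lower, and 7 had unlike signs. Of all 7797 genes past the filter, 37% were higher and 24.3% lower in both experiments. This split depends on scaling. After quantile normalization 10 of the 25 were higher and 5 lower, with 2214 and 2530 of all genes, and median centring left 7 and 5, with 1889 and 2964. The median difference of all genes was 0.09 log2 units on the deposited scale, -0.02 after quantile normalization and -0.09 after median centring, and that of the 25 genes was 0.42, 0.41 and 0.24. At a size of at least 2-fold in both experiments, 1 of the 25, Airn, was higher, where 3.54% of all genes were, and 0 were lower, where 1.24% were. Another 2, Asb4 and Plagl1, had endoderm at least 2-fold above the other tissue in experiment 1 and at least 2-fold below it in experiment 2, where 1.95% of all genes were, and 0 went the reverse way, where 0.0641% did. Without a filter Mkrn3 joined as at least 2-fold lower in both experiments, making 1 of 35 against 0.654% of 18193 genes, and the 1 of 35 higher stood against 1.81%. The 2 of 35 with opposite differences stood against 1.07%, and 0 of 35 against 0.033% for the reverse.

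Both endoderm arrays lay above both other arrays for 7 of the 25 genes (Airn, Peg3, Sgce, Ppp1r9a, Meg3, Rian and Kcnq1ot1), where 18.2% of all genes did. They lay below both for 4 (Mest, Ndn, Magel2 and Peg12), where 9.7% did. The list was drawn up with these tissue differences known, and nothing is read from its counts against the other genes. With limma, 0 of 13288 probe sets (0%) and 0 of the 25 genes had an adjusted p under 0.05. At an unadjusted p under 0.05, 2.97% of all probe sets were higher and 0.79% lower. With the replicate number as a block the adjusted count was again 0 (0%), and the unadjusted shares were 7.28% higher and 2.69% lower. With 2 arrays per tissue, a count of 0 does not show that levels are alike. The count of 1 gene at least 2-fold higher in both experiments became 3 when foregut endoderm 1, foregut endoderm 2 or mesoderm and ectoderm 1 was left out. It became 7 when mesoderm and ectoderm 2 was left out. In each case the remaining array of that tissue served both comparisons. The share of all genes under these omissions is not given, so nothing is read from these counts about the list.

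**Figure D2:**
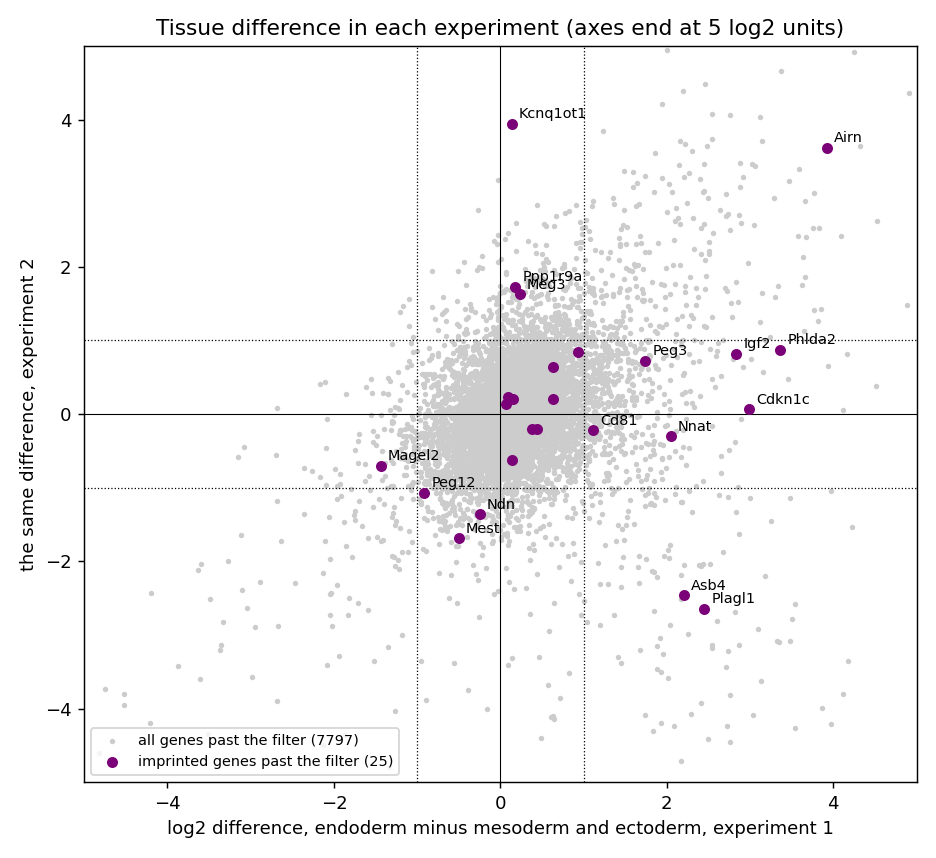
Log2 difference, foregut endoderm minus mesoderm and ectoderm, in experiment 1 (x axis) and experiment 2 (y axis), for 25 imprinted genes (purple) and all 7797 genes past the filter (grey, of which 49 lie beyond 5 on an axis and are not drawn), with dotted lines at 2-fold. Airn stands alone among the imprinted genes past the lines at the upper right, and Asb4 and Plagl1 stand past them at the lower right.

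Airn is a long noncoding RNA of the paternal copy that runs antisense through part of Igf2r and silences Igf2r on that copy in embryonic tissues. Its brightest probe set, 1456139_at, was at 7.37 in foregut endoderm 1 and 7.08 in foregut endoderm 2, while its partners were at 3.44 and 3.46. Both endoderm arrays were high. The others lay within 0.05 log2 units of each other once the lowest value of each array was subtracted, which is here taken as this probe set's own low level. If that level holds no signal, the difference was at least 3.92 log2 units in experiment 1 and at least 3.62 in experiment 2. On the same assumption it was at least 13.7-fold on average. Omitting any 1 array kept the mean difference between 3.63 and 3.92, and adding 16 to the intensities lowered it to 2.62.

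A second Airn probe set, 1451634_at, gave 5.86 and 6.97 on the endoderm arrays and 3.43 and 4.38 on the others, which do not overlap either. It differed by 2.43 and 2.59 log2 units. The remaining probe sets of Airn were dim. 1436627_at ranged from 2.49 to 3.11, 1446095_at from 2.62 to 3.16, and 1457337_at lay at the floor on all arrays. So 2 of 5 probe sets carried the difference, and which part of the transcript each one reads is not given in the sources used here. A probe set annotated to both Airn and Igf2r was left out. The strand each probe set reads is not given here either, so RNA of overlapping genes, such as Airn and Igf2r, Mest and Copg2, or Kcnq1ot1 and Kcnq1, cannot be told apart where probes lie in the overlap.

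Igf2r encodes the receptor that takes up IGF2 and delivers it to lysosomes, which makes it a brake on growth. Its probe set 1424111_at had 7.15 in endoderm and 6.71 in the other tissue of experiment 1, and at 9.07 and 9.28 in experiment 2. The tissues overlap and the experiments do not. Its tissue difference was 0.44 in experiment 1 and -0.21 in experiment 2. Probe set 1424112_at was at 8.44 and 6.68 in experiment 1 and at 7.04 and 6.62 in experiment 2, a difference of 1.75 and 0.43. The tissues do not overlap there, though foregut endoderm 1 alone was high. Between experiments the first probe set was 2.24 ± 0.29 log2 units (SE) higher in experiment 2 and the second differed by -0.73 ± 0.45, so these probe sets of 1 gene went opposite ways. Igf2r thus had 1 probe set higher in endoderm in both experiments, but by less than the 2 brighter probe sets of Airn. Its other neighbour on the list of further imprinted genes, the organic cation transporter Slc22a2, lay at the floor on all 4 arrays, as far as its brightest probe set shows.

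**Figure D3:**
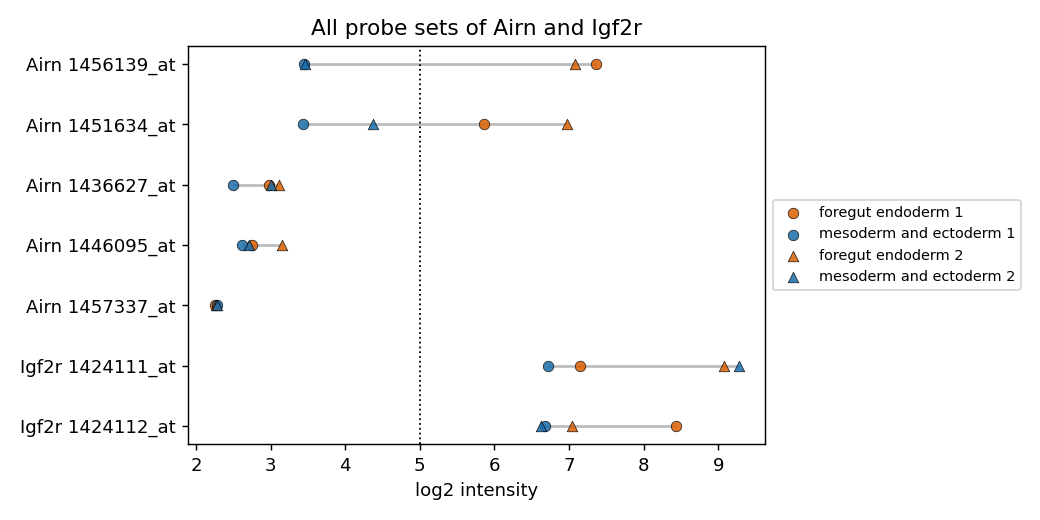
Log2 intensity (x axis) of all 5 probe sets of Airn and both of Igf2r (y axis) on the 4 arrays, with orange for foregut endoderm, blue for mesoderm and ectoderm, circles for experiment 1 and triangles for experiment 2. The upper 2 Airn probe sets part by colour and the lower 3 are dim. Of Igf2r, 1424111_at parts by shape and 1424112_at by colour, with a smaller gap.

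Other genes moved with the same label as Airn. The 10 yolk sac visceral endoderm markers summed to linear intensities of 1394 and 5685 in endoderm and 107 and 250 outside it, and 4 of 10 passed the filter, all at least 2-fold higher in endoderm in both experiments, while Apoa4 and Amn were at the floor throughout. The foregut endoderm markers summed to 6500 and 15515 in endoderm and 532 and 1289 outside it. Their part in the Airn difference was not tested.

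Igf2, the paternally active growth factor of the embryo, was at 10.86 and 12.42 in endoderm and at 8.02 and 11.60 in mesoderm and ectoderm, for experiments 1 and 2. Mesoderm and ectoderm 1 was low and the other arrays were within a narrower range, so the tissues overlap. Endoderm exceeded the other tissue by 2.84 log2 units in experiment 1 (7.14-fold) and by 0.82 in experiment 2 (1.77-fold). The mean difference of 1.83 ± 1.47 (SE), or ± 0.63 with the replicate block, was 0.04 without mesoderm and ectoderm 1. Igf2 lay 2.57 ± 0.63 (SE) log2 units higher in experiment 2 than in experiment 1, with an adjusted p of 0.131 in limma.

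The genes of the IGF pathway were taken as a list of 16, of which 15 had a probe set and 11 passed the filter. Of these 11, 6 were higher in endoderm in both experiments, 1 was lower and 4 had unlike signs, and 0 passed limma's adjusted threshold. Of all genes past the filter 37% were higher and 24.3% lower. The 6 and 1 were also counted after quantile normalization, where 28.4% of all genes were higher and 32.4% lower. They were counted again after median centring, where 24.2% were higher and 38% lower. Igfbp5, a secreted IGF binding protein, was at 12.39 and 12.95 in endoderm against 9.89 and 10.01, a difference of 2.50 and 2.94, and its arrays do not overlap. Igfbp3, another binding protein, differed by 2.85 and 1.52. The receptor gene Igf1r differed by 1.27 and 0.84, and Insr, the insulin receptor, by 0.63 and 1.28. Igf2bp1 and Igf2bp3, which bind Igf2 mRNA, were bright on all arrays, with differences of 0.51 and 0.14 and of -0.26 and -0.12. The ligand Igf1 had unlike signs, at 2.74 in experiment 1 and -1.12 in experiment 2.

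The Kcnq1 domain holds growth-restraining genes of the maternal copy and the paternal noncoding RNA Kcnq1ot1. Cdkn1c, a cyclin-dependent kinase inhibitor, was at 10.77 and 11.02 in endoderm and at 7.78 and 10.95 in mesoderm and ectoderm. Phlda2, a pleckstrin homology protein that limits placental growth, was at 6.83 and 7.74 and at 3.47 and 6.87. Cd81, a tetraspanin at the edge of the domain, was at 10.07 and 10.14 and at 8.96 and 10.36. In all these, mesoderm and ectoderm 1 was the low array. The difference of Cdkn1c was 2.99 in experiment 1 and 0.07 in experiment 2, that of Phlda2 3.36 and 0.87, and that of Cd81 1.11 and -0.22. Without mesoderm and ectoderm 1 the mean difference of Cdkn1c went from 1.53 to -0.06 and that of Phlda2 from 2.12 to 0.42. The sign for Cdkn1c in experiment 2 also turned with the scaling.

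Kcnq1ot1, which silences the domain on the paternal copy, had another pattern. Its brightest probe set, 1442029_at, was at 7.05 and 8.44 in endoderm and at 6.92 and 4.50 in mesoderm and ectoderm. The tissues do not overlap, but only experiment 2 set them widely apart, by 3.94 against 0.14 in experiment 1. A dimmer probe set, 1457781_at, differed by 0.09 and 1.57. The sign in experiment 1 turned with the scaling. Kcnq1, a potassium channel gene, ranged from 2.78 to 2.86, and Ascl2, a transcription factor of the placenta, from 2.27 to 2.35. Of 9 trophoblast markers 8 had a probe set and 1, Ets2, passed the filter, while Elf5 and Cdx2 were at the floor throughout. Gata3, also on that list, was at 6.81 in foregut endoderm 2 and at 2.28 to 2.78 elsewhere, and Plac1 ranged from 3.32 to 4.29.

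Mesoderm and ectoderm 1 was the lowest array for 12 of the 25 genes, where it was the lowest for 32.6% of all 7797 genes. The 25 genes had foregut endoderm 1 as the lowest array in 0 cases, foregut endoderm 2 in 6 and mesoderm and ectoderm 2 in 7, where the shares of all genes were 18.3%, 21.1% and 28%. Nnat, a small membrane proteolipid of the nervous system, belonged to the first kind, at 5.27 and 5.53 in endoderm and at 3.22 and 5.83 in the other tissue. It differed by 2.05 and -0.30. The heart muscle markers, of which all 10 passed the filter, summed to 111 in mesoderm and ectoderm 1 and to 104081 in mesoderm and ectoderm 2, against 12780 and 1185 in endoderm 1 and 2. Their part in the values of Igf2, Cdkn1c, Phlda2 and Nnat was not tested.

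Asb4 and Plagl1 had the arrays in an order like that of the heart muscle markers. Plagl1, a zinc finger factor that regulates other imprinted genes, was at 11.46 and 8.47 in endoderm and at 9.01 and 11.12 in mesoderm and ectoderm. Foregut endoderm 1 and mesoderm and ectoderm 2 were high and the other arrays low. Its difference was 2.45 in experiment 1 and -2.65 in experiment 2. Asb4, a maternally active gene for an ankyrin repeat protein of vascular progenitors, was at 8.82 and 6.92 and at 6.62 and 9.37, a difference of 2.21 and -2.46. Its other probe set past the filter differed by 2.65 and -1.07.

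The endothelial markers were high on the same arrays as Plagl1, with medians over the 5 of 8 past the filter of 6.54 and 3.36 in endoderm of experiments 1 and 2 and 4.23 and 6.53 in their partners. Their sums were 642 and 73 against 125 and 433, and Pecam1 was at the floor throughout. Of 7 red blood cell markers 6 had a probe set and 2 passed the filter (Hbb-y and Hbb-bh1, globin genes of the embryo), with medians of 10.19 and 6.54 in endoderm and 7.62 and 10.22 in the partners. The red blood cell sums were 2389 and 214 against 415 and 2451, and Alas2 was at the floor throughout. Head mesenchyme markers, 5 of 8 past the filter, summed to 2429 and 374 in endoderm and 513 and 643 in the partners, and none was at the floor throughout. Among them Twist1 differed by 2.17 in experiment 1 and -4.71 in experiment 2, and Pdgfra by 1.96 and -3.26. The other 3 past the filter, Prrx1, Pdgfrb and Foxc1, were higher in endoderm in both experiments, Pdgfrb by only 0.03 in experiment 2. So 2 of the 5 past the filter had unlike signs, as Asb4 and Plagl1 did. Below the filter, Foxc2 differed by 3.85 and -2.24, Tcf21 by 2.05 and -1.98, and Meox1 by 1.01 and -0.01. The part of these markers' cells in the values of Asb4 and Plagl1 was not tested. With 1 array left out, the mean difference ran from -1.59 to 1.39 for Plagl1 and from -1.50 to 1.25 for Asb4, and the sign turned for 2 of the 4 omissions in each gene.

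**Figure D4:**
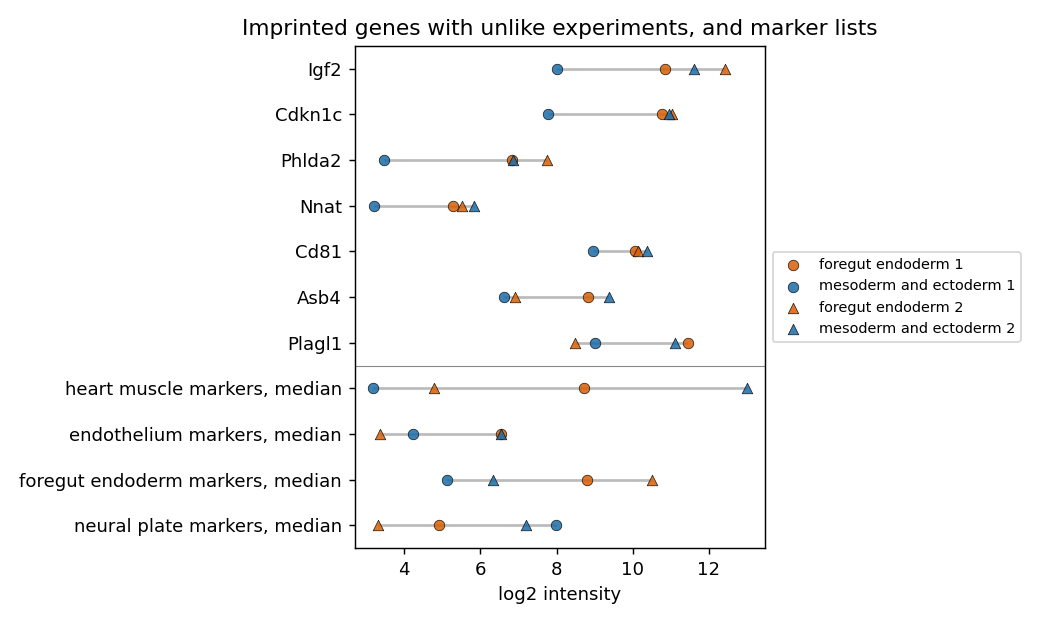
Log2 intensity (x axis) of 7 imprinted genes whose experiments were unlike, above the line, and the median of 4 marker lists over members past the filter, below it, with orange for foregut endoderm, blue for mesoderm and ectoderm, circles for experiment 1 and triangles for experiment 2. For Igf2, Cdkn1c, Phlda2, Nnat and Cd81 the blue circle lies apart from the others, and for Asb4 and Plagl1 the order is that of the heart muscle markers up to the 2 lower and the 2 upper arrays.

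In the Snrpn domain the neighbouring, paternally active genes Ndn, Magel2, Mkrn3 and Peg12, whose upstream sequences stand above, were lower in endoderm in both experiments. This held under the deposited scale, quantile normalization and median centring. Ndn encodes necdin, a MAGE family protein of postmitotic neurons, and its brightest probe set was at 12.73 and 11.43 in endoderm and at 12.98 and 12.79 in mesoderm and ectoderm. Foregut endoderm 2 was the low array. The difference was -0.25 in experiment 1 and -1.36 in experiment 2. All 5 Ndn probe sets past the filter were lower in both experiments, with differences between -0.73 and -0.25 in experiment 1 and between -2.17 and -1.30 in experiment 2. The other 3 lay at the floor.

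Magel2, another MAGE family gene, was at 6.64 and 5.98 in endoderm and at 8.08 and 6.68 in mesoderm and ectoderm. The tissues come close but do not overlap, and the differences were -1.44 and -0.70. Peg12, related to the Frat regulators of WNT signalling, was at 8.37 and 7.34 in endoderm and at 9.29 and 8.41 outside it. Its differences of -0.92 and -1.07 were alike, with a mean of -0.99 ± 0.58 (SE), or ± 0.23 with the replicate block. Mkrn3, a makorin ubiquitin ligase gene, was dim, at 2.76 and 3.26 in endoderm and 4.78 and 4.27 outside it. It did not pass the filter, and its differences were -2.01 and -1.02.

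Ube3a, the ubiquitin ligase gene at the other end of the domain, is imprinted in neurons. Its brightest probe set ranged from 9.89 to 10.45 and differed by 0.15 and 0.20, and its sign in experiment 1 turned with the scaling. Of 3 Ube3a probe sets past the filter, 1 was higher and 1 lower in both experiments. The only probe set of Snrpn alone lay at the floor, and probe sets that share Snrpn with another gene were not used. Neural plate markers moved with the same label, at medians of 4.92 and 3.31 in endoderm 1 and 2 and 7.99 and 7.19 outside it over the 9 of 10 past the filter. They summed to 2006 and 4537 against 6853 and 5826, and none was at the floor throughout. Their part in the lower levels of Ndn, Magel2, Mkrn3 and Peg12 was not tested.

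**Figure D5:**
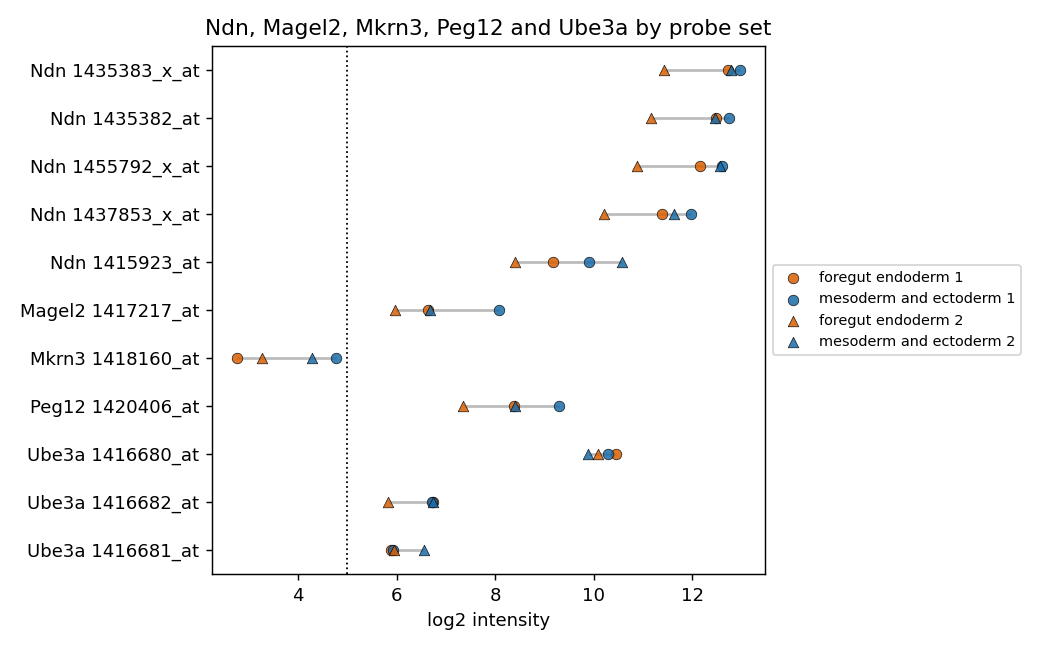
Log2 intensity (x axis) of probe sets of Ndn, Magel2, Peg12 and Ube3a past the filter and of the dim Mkrn3 (y axis) on the 4 arrays, with orange for foregut endoderm, blue for mesoderm and ectoderm, circles for experiment 1 and triangles for experiment 2. Within each shape, orange lies left of blue for all 5 Ndn probe sets, Magel2, Mkrn3 and Peg12, and the 3 Ube3a probe sets show no common order.

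Mest, a paternally active gene for a hydrolase-like protein of mesoderm, went the same way. It was at 11.77 and 10.74 in endoderm and at 12.27 and 12.43 in mesoderm and ectoderm, which do not overlap. The differences were -0.50 and -1.69, with foregut endoderm 2 as the low array. Its overlapping neighbour Copg2, a coatomer subunit gene active mostly from the maternal copy, ranged from 8.35 to 9.20 and differed by 0.09 and 0.23.

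Peg3, a paternally active zinc finger gene, was at 13.55 and 13.21 in endoderm and at 11.81 and 12.48 in mesoderm and ectoderm. The tissues do not overlap. The difference was 1.74 in experiment 1 (3.33-fold) and 0.73 in experiment 2 (1.66-fold), with a mean of 1.23 ± 0.41 (SE). In both experiments all 3 Peg3 probe sets past the filter were higher in endoderm, with mean differences of 1.23 to 2.00. For the brightest, omission of 1 array moved the mean between 0.90 and 1.57. Its neighbours Usp29 and Zim1 lay within 2.65 to 2.70 and 2.30 to 2.34, near the floor.

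The Peg10 domain holds Sgce, Ppp1r9a and Peg10, and also Asb4, which is described above with Plagl1. Sgce, encoding epsilon-sarcoglycan, was at 7.72 in each endoderm sample and at 7.08 in each other sample, a difference of 0.63 and 0.64. That is the closest match of experiments among the 25 genes, with an SD of 0.0064 over the differences. Ppp1r9a, which encodes the actin-binding neurabin, was at 9.05 and 9.96 in endoderm and at 8.87 and 8.24 outside it, and differed by 0.18 and 1.73, the first of which turned sign with the scaling. Peg10, a retrotransposon-derived gene of the placenta, left its low level in foregut endoderm 1 (4.49) and was at 2.53 to 2.67 elsewhere.

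The Dlk1 and Meg3 domain was represented by its maternal noncoding RNAs. Meg3 was at 11.93 and 12.17 in endoderm and at 11.70 and 10.54 in mesoderm and ectoderm, with differences of 0.23 and 1.63. All 5 Meg3 probe sets past the filter were higher in endoderm in both experiments on the deposited scale, and the sign of the brightest turned in experiment 1 with the scaling. Rian, the host of small nucleolar RNAs downstream of Meg3, was at 9.35 and 9.56 against 8.42 and 8.72, a difference of 0.93 and 0.84. Its other probe sets did not follow, as 1 of 3 past the filter was lower in both experiments and their mean differences ran from -0.37 to 0.89. Mirg, the microRNA host, ranged from 2.88 to 3.58. Dlk1, the paternal gene for a Notch-related surface protein, ranged from 3.57 to 4.17.

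Of the single genes, Grb10, an adaptor that dampens insulin and IGF receptor signalling, was at 13.67 and 12.66 in endoderm and at 13.04 and 12.46 outside it, with differences of 0.63 and 0.20. Gnas, which encodes the stimulatory G protein alpha subunit and related products, ranged from 10.96 to 11.66 and differed by 0.07 and 0.13, and its sign turned with the scaling. Commd1, a copper and NF-kappaB regulator whose gene contains Zrsr1, was at 9.40 and 10.77 in endoderm and at 9.26 and 11.40 outside it. It differed by 0.14 and -0.63, while its other probe set past the filter was lower in endoderm in both experiments, by -0.01 and -0.82. Impact, a regulator of translation control, was at 9.54 and 7.15 in endoderm and at 9.16 and 7.36 outside it, a difference of 0.38 and -0.20. The other Impact probe set past the filter was higher in endoderm in both experiments, by 0.82 and 1.02. For the brightest probe sets of Grb10, Gnas, Commd1 and Impact the gaps between experiments were larger on average than those between tissues.

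Parental origin divides the list in another way, from textbook knowledge of the active copy. Which copy is active in these tissues was not measured. Grb10, named above as maternally active, is counted here with the genes whose imprinting depends on tissue. Of 12 paternally active genes past the filter, 5 were higher and 4 lower in endoderm in both experiments and 3 had unlike signs. Of 9 maternally active genes 6 were higher, 0 lower and 3 unlike, and of 4 genes whose imprinting depends on tissue 3 were higher, 0 lower and 1 unlike. On the deposited scale the 4 list genes past the filter that were lower in both experiments were all paternally active, and 3 of these 4 are neighbours. Commd1, counted as a gene whose imprinting depends on tissue, was also lower in both under the other scalings. Over all genes past the filter, 37% were higher and 24.3% lower. The counts of higher genes depend on scaling. After quantile normalization 4 of the 12 paternal and 4 of the 9 maternal genes were higher, where 28.4% of all genes were. After median centring 4 and 2 were higher, where 24.2% of all genes were. Under each of these scalings 4 paternal and 0 maternal genes were lower, where 32.4% and 38% of all genes were. The difference between the parental groups was not tested. Their median differences were 0.36 for paternal and 0.89 for maternal genes on the deposited scale, and 0.19 and 0.71 after median centring, where those of all genes were 0.09 and -0.09.

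The experiments were also compared, as experiment 2 minus experiment 1 with tissue as a term, a contrast that did not choose the list. With limma, 0 of 13288 probe sets (0%) and 0 of the 25 genes reached an adjusted p of 0.05, the lowest being 0.0966. At an unadjusted p under 0.05, 3 of the 25 (Igf2r, Igf2 and Commd1) were higher in experiment 2 and 3 (Impact, Magel2 and Peg12) lower, where 16.3% and 13.7% of probe sets were, so the share on the list was near that of all probe sets. Impact was 2.10 log2 units lower in experiment 2 (-2.10 ± 0.28, SE), as 9.54 and 9.16 stood against 7.15 and 7.36. Commd1 differed by 1.76 ± 0.32. With quantile normalization limma called 878 probe sets, Igf2r and Impact among them, and with median centring 423, none of them on the list.

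A further list of 40 imprinted genes outside these 38 gave 32 with a probe set and 14 past the filter. Of these, 7 were higher and 3 lower in endoderm in both experiments (37% and 24.3% of all genes), 0 were at least 2-fold apart the same way in both, and 0 passed limma's adjusted threshold. The 3 lower genes were Dlx5 (-0.73 and -2.16), Inpp5f (-0.52 and -0.48) and Wars (-0.17 and -0.67). Ddc, the aromatic amino acid decarboxylase next to Grb10, had mesoderm and ectoderm 1 as its low array, with differences of 3.16 and 0.57. Slc38a4, an amino acid transporter, differed by 1.26 and -0.37. The bright neighbours Casd1 of Sgce and Nap1l4 of Phlda2 differed by 0.45 and 0.32 and by 0.38 and 0.15. Their median difference was 0.24 on the deposited scale and 0.06 after median centring, and 10 of the 32, among them Rasgrf1 and Calcr, were at the floor on all arrays.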

How the data were processed

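The deposited values are intensities per probe set, which the authors computed by GC-RMA (GenePattern) from arrays hybridized after 2 rounds of RNA amplification, according to the series' design. The submitters' processing notes name RMA. Software versions are not given in the sources used, and the linear scale was read from the values. Differences against a probe set's own lowest level are given as lower bounds, on the assumption that this level holds no signal.

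Of 45101 probe sets, 64 controls were left out, and 34945 had 1 gene symbol in GEO's platform annotation, 932 several and 9160 none. Only those with 1 were named, and all 35 listed genes matched a RefSeq gene table of GRCm38.p6 by identifier. Log2 was taken here. Probe sets above 5 on at least 2 arrays (13288) entered limma 3.58.1 in R 4.3.3 (lmFit, eBayes, two-sided, Benjamini-Hochberg, threshold 0.05). The code was checked only on simulated arrays with no difference between experiments, a simpler case than these data. SE of tissue differences are from the fit without the block, and SE of experiment differences from the fit with both terms. The replicate numbers pair the samples, as the labels' protocols give each number its own dissection, and across kept probe sets the experiment shifts of the tissues had r = 0.56. A value within 0.05 log2 units of a dim probe set's own lowest level, once the array's lowest value is subtracted, counts as at that level. Members and lists were chosen with earlier results of these data known. Genes described in full were those at least 2-fold apart in both experiments, those above a log2 level of 10 on any array, and Airn and Igf2r. Precision is limited by 2 arrays per tissue. The upstream sequences are RefSeq's. Alternatives were quantile normalization, median centring, other filters, log2 of intensity plus 16, other probe sets per gene, the replicate block and each array left out.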

Additional observations from a re-analysis of the deposited data

Results flagged for a closer look

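For Asb4 and Plagl1 the experiments gave opposite tissue differences of at least 2-fold. The log2 difference of Asb4, foregut endoderm minus mesoderm and ectoderm, was 2.21 in experiment 1 and -2.46 in experiment 2. That of Plagl1 was 2.45 in experiment 1 and -2.65 in experiment 2. The difference between the experiments was not tested, since each holds 1 array per tissue.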

How the results depend on the processing

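Counts of genes at least 2-fold apart in both experiments are small and moved easily. The shares of all genes under these alternatives are not given, so nothing is read from the changes about the list. Those higher in endoderm numbered 1, became 2 with the mean of all probe sets of a gene and 2 with the second brightest probe set, and lay between 3 and 7 when 1 array was omitted. Those lower numbered 1 and became 2 with quantile normalization, 2 with median centring and 0 with 16 added to the intensities, and lay between 1 and 4 when 1 array was omitted. Those in opposite directions numbered 2 and became 1 with the mean of all probe sets and 1 with the second brightest, and were 0 without any 1 array. The median difference of the 32 genes off the floor was 0.23, or 0.026 without mesoderm and ectoderm 1, and up to 0.51 with another array omitted. It was 0.055 with median centring, 0.126 with quantile normalization and 0.145 with 16 added. Between tissues limma called 0 probe sets under each alternative, the replicate block included, which therefore changed no call, while those at an unadjusted p under 0.05 went from 500 to 1326 with the block. Between experiments it called 878 with quantile normalization and 423 with median centring, against 0 on the deposited scale, and the cause was not tested. Leaving out arrays there was not run, as no degrees of freedom remain. The mean difference of 3 of 32 genes changed sign with quantile normalization, of 7 with median centring and of 0 with 16 added. The number of arrays and the floor limit what can be seen.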

Other observations

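The genes that set and keep methylation marks were mostly well above the filter in these tissues. Of a list of 16, all had a probe set and 11 passed the filter, with 0 past limma's adjusted threshold. In endoderm 5 were higher and 4 lower in both experiments, where 37% and 24.3% of all genes were. After median centring 3 were higher and 5 lower, where 24.2% and 38% of all genes were. Dnmt1, the maintenance methyltransferase, was at 11.47 and 10.94 in endoderm and at 10.94 and 11.09 in mesoderm and ectoderm. Dnmt3b, a de novo methyltransferase, was at 11.48 and 10.99 in endoderm and at 12.39 and 11.49 outside it, a difference of -0.92 and -0.50. Trim28, the corepressor recruited to imprinted elements, differed by -0.10 and -0.03, and Smchd1, a chromatin protein that silences some imprinted clusters, by 0.11 and 0.13. The zinc finger gene Zfp445 was at 9.82 to 10.67 on the 4 arrays, while the only level seen for Zfp57 was 2.55 to 2.58, a dim probe set's own lowest level. Dnmt3l, Dppa3 and Tet3 were at the floor on all 4 arrays.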
